A study of Macaca fascicularis with 2 samples.

Results

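The genes described here act in meiotic recombination and in the synaptonemal complex. They were taken by symbol from a list of 38 genes in 7 roles, and 35 of the 38 were present among the 28845 features of the count matrices. TERB1, TERB2 and MAJIN, which attach telomeres to the nuclear envelope, were not among the features under those symbols, so that role had 0 of 3 genes. The other 6 roles were complete, and every one of the 35 genes had at least 30 unique molecular identifiers (UMIs, counts of captured RNA molecules) in the staged germ cells of the scrotal testis.

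Droplet-based single-cell RNA sequencing was performed on testis of the cynomolgus monkey (Macaca fascicularis). One library came from a testis in the abdomen on 1 side (UAT), and the other from the opposite testis in the scrotum (CST). There was 1 library per position. The age, the number of animals and the time in the abdomen were not given in the sources used here, so position, animal and library preparation cannot be told apart, and no test between positions was possible.

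In meiosis, a germ cell copies its DNA, then breaks it on purpose and repairs the breaks on the homologous chromosome. A protein axis built on cohesin forms along each chromosome, recombinases search for the homologue, and the synaptonemal complex zips the paired axes together while some of the breaks mature into crossovers. In the testis this happens in primary spermatocytes. It follows the differentiating spermatogonia and precedes the haploid spermatids, and it is known to be sensitive to the higher temperature of the abdomen.

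Germ cells were given to 7 stages by marker genes that did not include the 35 genes, which were also left out of the clustering. After quality filters there were 286 germ cells among 11131 cells of UAT and 10143 among 13201 of CST. In CST the stages held 213 undifferentiated spermatogonia, 340 differentiating spermatogonia, 248 early, 403 pachytene and 1008 late spermatocytes, 1648 round spermatids and 2914 elongating spermatids. UAT had 164 undifferentiated and 10 differentiating spermatogonia, 1 cell given to late spermatocytes and none in the other 4 stages. No stage was given to 111 germ cells of UAT (38.8%) and 3369 of CST (33.2%), most of them in shallow clusters. Of these, 109 UAT and 350 CST cells formed cluster 8 (median 1340 UMIs). Its marker scores were highest for differentiating (0.6) and undifferentiated (0.46) spermatogonia. Total UMIs were 111047299 in UAT and 197225937 in CST, and 50 cell barcodes occurred in both libraries. Levels are counts per 1000000 UMIs (CPM), taken from the UMIs of a gene and of all genes summed over the cells of a stage. Intervals in parentheses are exact 95% intervals that cover counting error only. Since UMIs were not scaled by gene length, levels are compared within a gene and not between genes.

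Free RNA from spermatids was present in the CST droplets. PRM1, a protamine of elongating spermatids, was at 144000 CPM in elongating spermatids, and still between 530 and 942 CPM in each of the 5 stages before round spermatids. In the somatic cells of CST, the 35 genes were at 0.301% (DMC1) to 33.6% (MLH3) of their own highest germ stage, and 29 of the 35 were at or under their CST somatic level in at least 1 germ stage. This held for 4 genes in undifferentiated spermatogonia (MEIOC, HORMAD2, MLH3 and CNTD1), 2 in differentiating spermatogonia (HORMAD2 and MLH3), REC8 alone in early spermatocytes, 9 in pachytene (ZCWPW1, PRDM9, REC8, MND1, RAD51AP2, MCMDC2, TEX15, TEX11 and MLH3), 7 in late spermatocytes, 8 in round and 23 in elongating spermatids. Levels in that range cannot be told apart from free RNA. The somatic level also holds any RNA made by the somatic cells themselves. In UAT, which had few germ cells, it was 25.4 CPM for ZCWPW1, 35.9 for MLH3 and 23.2 for SPATA22. In CST these levels were 15.1, 35.1 and 44.8 CPM, and the part of free RNA in them was not tested.

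Across CST, most of the genes were highest in a narrow window at the start of meiosis. Of the 35, 22 had their highest level in early spermatocytes and 8 in differentiating spermatogonia. HORMAD2 and SPATA22 were highest in pachytene spermatocytes, SYCE1 and SYCE3 in late spermatocytes, and REC8 in round spermatids. The share of all features highest in each stage is not given here, so how particular this window is to these genes cannot be said. These stages are sums over clusters, and by single cluster some of the order changed. Of the 8 highest in differentiating spermatogonia, 7 had their highest cluster among early spermatocytes (cluster 31), MND1 being the exception. The highest cluster of SYCE3 was also cluster 31, that of SYCE1 was a pachytene cluster, that of CNTD1 a late spermatocyte cluster and that of REC8 a cluster of differentiating spermatogonia. Onset was taken as the first stage at 25% or more of the gene's own highest stage. By this rule 13 genes were on in undifferentiated spermatogonia, 11 began in differentiating spermatogonia and 11 in early spermatocytes. Onset too depends on the summed stages. Among the 13, SPO11 and PRDM9 had only 11 and 19 UMIs in undifferentiated spermatogonia, at 3.68 and 6.36 CPM, against 65.2 and 165 CPM in cluster 31. ZCWPW1 and SMC1B were at 176 and 288 CPM against 1900 and 2830 in that cluster, and STAG3 and TEX15 at 74.0 and 202 against 473 and 968. All of these are under 25% of the cluster level. SYCE1 (90.4 against 365 CPM in its highest cluster) and MCMDC2 (7.7 against 30.8 in cluster 31) lay near that limit. Decline, the first later stage under 25%, came at early spermatocytes for TEX15, at pachytene for 15 genes, at late spermatocytes for 6, at round spermatids for 7 and at elongating spermatids for 4. REC8 and SYCE1 did not decline by this rule. With germ cells clustered at resolution 0.5 instead of 1, 14 genes rather than 24 had their onset in spermatogonia and 10 had another highest stage. With the onset set at 50%, 13 began in spermatogonia.

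**Figure D1:**
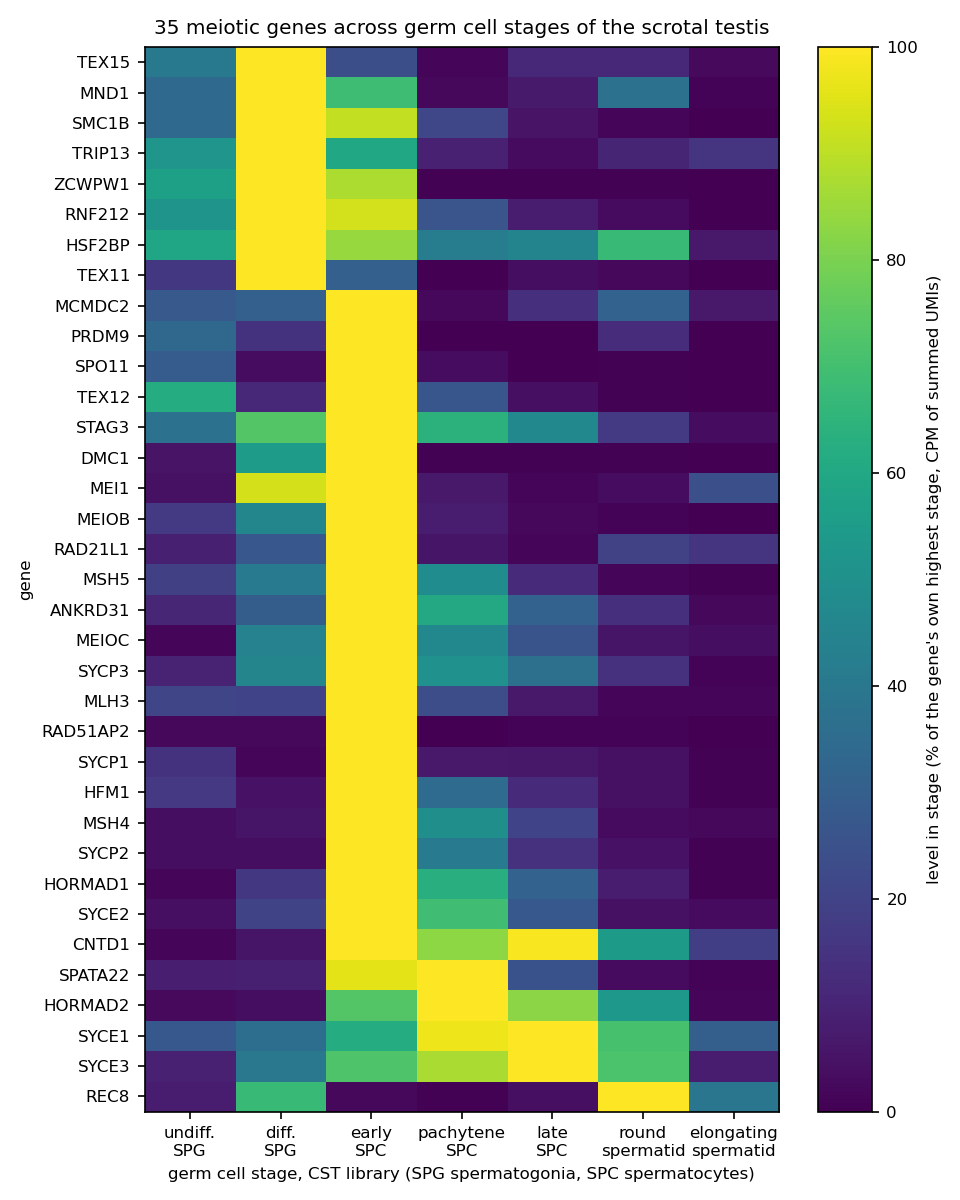
Level of 35 genes (rows) in 7 germ cell stages of CST (columns), as percent of the gene's own highest stage, from CPM of summed UMIs. The 22 genes highest in early spermatocytes form a run of full colour in the column of that stage. TEX12 is bright in undifferentiated spermatogonia and early spermatocytes, and REC8 in differentiating spermatogonia and round spermatids.

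Between neighbouring stages, a gene was called when its level differed at least 1.5-fold with a counting interval of the ratio that left out 1, among features with at least 30 UMIs in the 2 stages together. From undifferentiated to differentiating spermatogonia 22 of 33 testable genes were higher and 4 lower, where 24.4% of all features were called higher and 27.2% lower. From differentiating spermatogonia to early spermatocytes 24 of 35 were higher and 4 lower, against 25.6% and 40.9% of all features. The step to pachytene was the main fall: 28 of 34 genes were lower and only SYCE1 was higher, with 46.2% of all features lower and 18.0% higher. From pachytene to late spermatocytes 16 of 31 were lower and 6 higher (28.4% and 31.2% of all features), and from late spermatocytes to round spermatids 19 of 33 were lower and 6 higher (38.9% and 37.8%). In elongating spermatids 27 of 32 were lower than in round spermatids and only MEI1 was higher, beside 66.9% and 13.9% of all features. The median log2 ratio of the genes was 1.12 at the step to early spermatocytes and -1.3 at the step to pachytene, and that of all features was -0.2 and -0.28.

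A second list of 62 genes around meiotic recombination, of which 47 were among the features, includes repair and cohesin genes that mitotic cells also use. In this list 32 of 46 were higher in differentiating than in undifferentiated spermatogonia and 4 lower, beside 24.4% and 27.2% of all features. At the step to early spermatocytes 14 of 47 were higher and 20 lower, beside 25.6% and 40.9% of all features. These 2 counts lie close to the background. The median of their log2 ratios was -0.39, and that of all features was -0.2. At the step to pachytene 28 of 43 were lower and 4 higher, beside 46.2% and 18.0% of all features.

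MEIOC, which works with YTHDC2 to move germ cells from mitosis into meiosis, was the single gene for entry. Its level was 9.38 CPM (6.23 to 13.6) in undifferentiated spermatogonia, near the 11.9 CPM of CST somatic cells. It then stood at 325 in differentiating spermatogonia, 731 (707 to 756) in early, 342 in pachytene and 191 in late spermatocytes, 41.1 in round and 25.7 in elongating spermatids. The step into differentiating spermatogonia was 34.7-fold (23.9 to 52.4), the largest ratio of the genes called there, although the interval of MEI1 (20.1-fold, 6.69 to 99.4) overlapped it.

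Of the 5 genes of break formation and hotspot choice, SPO11, MEI1, PRDM9 and ZCWPW1 declined at pachytene and ANKRD31 at round spermatids. ZCWPW1, a reader of the histone marks left by PRDM9, was at 176, 310, 272, 2.08, 1.52, 2.06 and 0.451 CPM over the 7 stages in order. It was already high in undifferentiated spermatogonia, and from pachytene on it was under the 15.1 CPM of CST somatic cells. ANKRD31, a partner of the break machinery that also acts in the pseudoautosomal region, ran at 14.1, 38.8, 131, 79.2, 41.4, 17.5 and 2.8 CPM and outlasted ZCWPW1. SPO11, the enzyme that cuts the DNA, had only 61 UMIs in early spermatocytes, 12.7 CPM (9.71 to 16.3), and 0 UMIs in late spermatocytes, which allows up to 0.13 CPM. PRDM9, the methyltransferase that places the hotspots, was at 18.9 CPM in early spermatocytes with 0 UMIs in pachytene and late spermatocytes, and came back with 95 UMIs in round spermatids (2.38 CPM). PRDM9 has a close relative in primates, PRDM7, and the sources used here do not say how shared reads were counted.

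The axis genes differed in how long their RNA lasted. HORMAD1, which recruits the break machinery to unpaired axes, was at 21.4, 189, 1150, 720, 361, 86.8 and 7.44 CPM from undifferentiated spermatogonia to elongating spermatids. Its 21.4 CPM (16.5 to 27.4) in undifferentiated spermatogonia lay next to the 19 CPM (16.8 to 21.5) of CST somatic cells. HORMAD2, its relative that signals unsynapsed chromosomes, was at 7.7, 12.2, 240, 327, 270, 174 and 5.87 CPM, and its first 2 values were below the somatic 17.1 CPM. SYCP3, the lateral element protein, was at 84.1, 388, 856, 434, 315, 123 and 7.46 CPM, so it was 4.62-fold (4.05 to 5.29) higher in differentiating than in undifferentiated spermatogonia. SYCP2, its partner, differed: it stood at 32.8 CPM in undifferentiated and 32.3 in differentiating spermatogonia, and then at 850 in early spermatocytes, 26.3-fold higher (22.4 to 31.2). SMC1B, the meiotic core cohesin subunit, was at 288 CPM in undifferentiated spermatogonia, 840 in differentiating spermatogonia and 762 in early spermatocytes, and 177 by pachytene. STAG3, another cohesin subunit, kept to a narrower range in the summed stages, 74.0 to 196 CPM from undifferentiated spermatogonia to late spermatocytes. By single cluster it reached 473 CPM in cluster 31 of the early spermatocytes. TRIP13, the ATPase that strips HORMADs from synapsed axes, was highest in differentiating spermatogonia at 161 CPM and was at 14.6 in pachytene.

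In the central region of the synaptonemal complex the genes did not move together. SYCE3 was at 74.0, 324, 585, 704, 808, 577 and 64.9 CPM over the 7 stages and SYCE1 at 90.4, 119, 203, 320, 329, 233 and 99.8 CPM. Both are central element proteins, and both remained well above their CST somatic levels (51.8 and 24.3 CPM) in round spermatids. The summed early stage hides a difference between its clusters for SYCE3, which was at 1670 CPM (1570 to 1780) in cluster 31 and 444 (424 to 465) in cluster 25. SYCE2, another central element protein, peaked in early spermatocytes at 167 CPM and was at 7.65 CPM in round spermatids. SYCP1, the transverse filament that bridges the axes, had an early and a late maximum: 183 CPM (168 to 199) in undifferentiated spermatogonia, 16.9 (13.4 to 21.0) in differentiating spermatogonia and 1270 (1230 to 1300) in early spermatocytes. The step down was 0.0921-fold (0.0719 to 0.117) and the step up 75.0-fold (60.2 to 94.7). TEX12, a central element protein, did the same at 175, 32.7 and 284 CPM in these 3 stages. Besides these, only PRDM9 and HFM1 were called lower in differentiating than in undifferentiated spermatogonia. CST somatic cells had 10.1 CPM of SYCP1 and 2.09 CPM of TEX12.

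Among the strand invasion and repair genes, early and late genes were found side by side. SPATA22, the partner of MEIOB on single-stranded DNA, was at 91.1, 93.6, 1040, 1080, 274, 32.9 and 8.6 CPM. MEIOB itself was earlier, at 64.6, 176, 382 and 29.2 CPM from undifferentiated spermatogonia to pachytene, so these partners were apart at the pachytene stage. HSF2BP, which brings BRCA2 to meiotic breaks, was at 118, 200, 169, 84.5, 90.1, 135 and 13.7 CPM. TEX15, required for loading the recombinases, was at 202, 498, 119, 7.21, 55.8, 55.3 and 13.3 CPM, with 8.73 CPM in CST somatic cells. Its decline by early spermatocytes in the summed stage comes from cluster 25, at 9.16 CPM, since cluster 31 had its highest level of all, 968 CPM (887 to 1050). DMC1, the meiotic recombinase, went from 2.68 CPM in undifferentiated spermatogonia to 27.2, 49.5 and 0.24 CPM in the next 3 stages. RAD51AP2, a gene of homologous recombination, was at 24.5 CPM in differentiating spermatogonia, 1130 in early spermatocytes and 2.64 in pachytene, the last under the somatic 3.73 CPM.

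The crossover genes declined at stages from pachytene (TEX11 and MLH3) to elongating spermatids (CNTD1). CNTD1, a cyclin-like protein needed to mature crossovers, was at 4.02, 13.1, 223, 186, 221, 122 and 41.5 CPM over the 7 stages, beside 12.5 CPM in CST somatic cells. The values for early and late spermatocytes, 223 (210 to 237) and 221 (215 to 228), overlapped. HFM1, a helicase of crossover formation, was at 24.1 and 7.17 CPM in the spermatogonia, had its highest level in early spermatocytes (interval 135 to 157 CPM), and was at 50.8, 17.4, 6.57 and 0.618 CPM in the stages after. MSH4 and MSH5, the MutS pair that stabilises crossover intermediates, were highest in early spermatocytes at 18.9 and 51.0 CPM and both declined at late spermatocytes. TEX11, an X-linked partner of that pair, was at 171 CPM in differentiating spermatogonia, 52.0 in early and 0.32 in pachytene spermatocytes. MLH3, which resolves crossovers, was at 105 CPM in early spermatocytes, yet also at 35.9 CPM in UAT and 35.1 CPM in CST somatic cells.

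The early stage joined 2 clusters that differed in depth and in these genes. Cluster 31 (79 cells, median 6419 UMIs) was led by SCML1, FMR1NB and LY6K among the stage markers, and cluster 25 (169 cells, median 21255 UMIs) had no stage marker among its 10 leading genes. By cluster, 26 of the 35 genes were highest in cluster 31 and 3 in cluster 25. No share of all features is given beside these counts. DMC1 was at 228 CPM (190 to 272) in cluster 31 and 26.3 (21.7 to 31.7) in cluster 25, SPO11 at 65.2 and 5.87, and PRDM9 at 165 with 0 UMIs in cluster 25. ZCWPW1 stood at 1900 against 59.9 CPM and TEX15 at 968 against 9.16 CPM. In contrast, SYCP1 was higher in cluster 25 at 1310 (1280 to 1350) than in cluster 31 at 900 (823 to 983), and so were HORMAD1, SPATA22, CNTD1 and MLH3, the last at 113 against 43.5 CPM. The summed level of the early stage follows cluster 25, whose cells are deeper. With each cell weighted equally, 7 of the 35 genes had another highest stage, ZCWPW1 and SMC1B among them.

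Differentiating spermatogonia also held 2 clusters. Cluster 15 (240 CST cells) had MKI67, a gene of dividing cells, at 800 CPM, and cluster 29 (100 CST cells) had STRA8, the retinoic acid target that starts meiosis, at 229 CPM against 3.52 in cluster 15. MEIOC was at 182 CPM in cluster 15 and 829 in cluster 29, SYCP3 at 262 and 834, ZCWPW1 at 189 and 735, and SYCE3 at 190 and 796. REC8, the meiotic kleisin of cohesin, was at 13.8 CPM (10.3 to 18.2) in cluster 15 and 343 (309 to 380) in cluster 29, and only 18.1 in cluster 31 and 0.94 in cluster 25. MND1 went the other way, with 285 CPM in cluster 15 and 134 in cluster 29.

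REC8 then came back in haploid cells. Its stage values were 10.4, 86.8, 2.91, 0.881, 5.26, 129 and 50.3 CPM, a 24.5-fold (20.5 to 29.6) higher level in round spermatids than in late spermatocytes. In the 7 clusters of round spermatids it lay between 70.5 and 213 CPM. REC8 overlaps IPO4, a nuclear import gene, in the RefSeq gene table (assembly T2T-MFA8v1.1). IPO4 was at 96.5 CPM in late spermatocytes and 62.7 in round spermatids and so did not follow REC8. Of the 34 genes matched in that table, 14 overlap another gene, and the table gives no strand.

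A few other genes had a smaller second rise. From pachytene to late spermatocytes REC8, MND1, RAD51AP2, MCMDC2, TEX15 and TEX11 were called higher, 6 of 31 testable genes, beside 31.2% of all features. From late spermatocytes to round spermatids the 6 of 33 called higher were REC8, PRDM9, RAD21L1, TRIP13, MND1 and MCMDC2, beside 37.8% of all features. Both counts lie under the share of all features, so a rise at these steps is not a trait of the gene set. MND1, a cofactor of strand exchange, was at 252 CPM in differentiating spermatogonia, 5.2 in pachytene and 93.9 in round spermatids, and reached 164 CPM in cluster 9 of the round spermatids against 1.8 in cluster 22. RAD21L1, a meiotic kleisin like REC8, was at 42.0 CPM in early spermatocytes, 0.565 in late spermatocytes and 8.35 in round spermatids. TRIP13 was at 4.96 CPM in late spermatocytes, 16.7 in round and 24.6 in elongating spermatids.

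**Figure D2:**
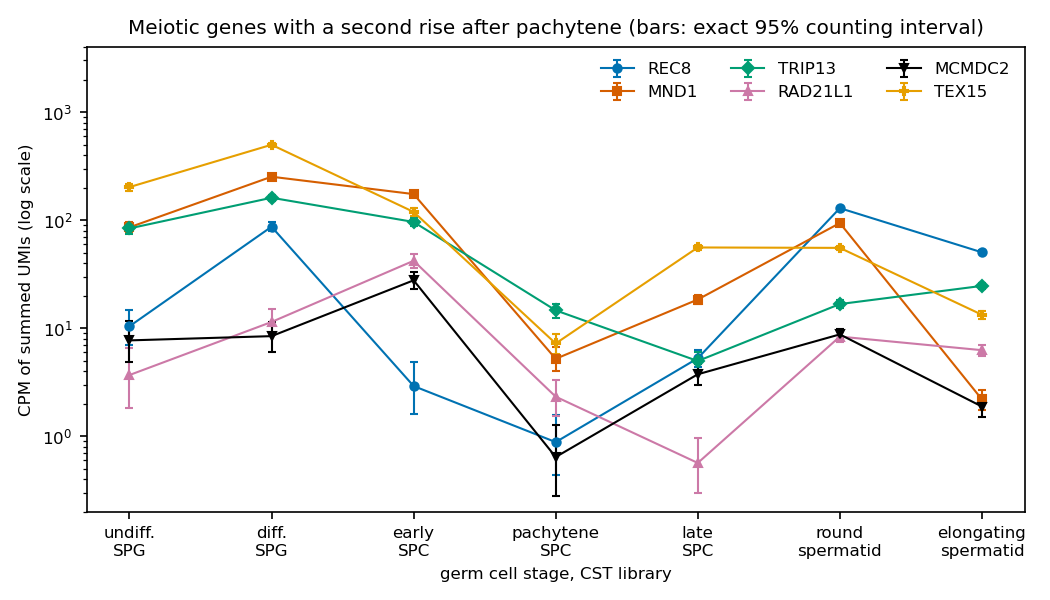
CPM of summed UMIs (log axis) of 6 genes over 7 germ cell stages of CST, with exact 95% counting intervals as bars. REC8 has maxima at 86.8 CPM in differentiating spermatogonia and 129 CPM in round spermatids, with 0.881 CPM between them in pachytene.

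The high level of SYCP1 and TEX12 in undifferentiated spermatogonia came mainly from 1 of 2 clusters, and both libraries showed it. Cluster 27 was led by UTF1, ID4 and PIWIL4, genes of the most primitive spermatogonia, and held 60 UAT and 88 CST cells. Cluster 19, the other undifferentiated cluster, was led by L1TD1 and NANOS3 among the markers and held 104 UAT and 125 CST cells. SYCP1 in the UTF1-high cluster was at 379 CPM (341 to 420) in CST and 297 (268 to 328) in UAT, against 88.8 (76.3 to 103) and 56.5 (47.1 to 67.1) in the other cluster. The ratios were 4.27 (3.56 to 5.13) in CST and 5.25 (4.3 to 6.46) in UAT. TEX12 was at 302 against 115 CPM in CST and 204 against 72.2 CPM in UAT. In CST, SYCP1 was at 8.4 CPM in the MKI67-high cluster 15, under the 10.1 CPM of CST somatic cells, and at 46.6 CPM in the STRA8-high cluster 29.

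Genes went both ways between these clusters. ANKRD31, SYCP2, SYCP1, TEX12 and RAD51AP2 were called higher in the UTF1-high cluster in both libraries, and SMC1B, SYCP3, TRIP13 and MEIOB lower in both. Counts were 8 higher and 6 lower of 22 testable genes in CST, where 20.6% of all features were higher and 17.2% lower. In UAT they were 5 and 6 of 26, with 19.4% and 14.6% of all features, so the count higher there lies close to the background. The share of all features called the same way in both libraries is not given here. SMC1B was at 116 against 370 CPM in CST and 127 against 373 in UAT. SPO11 and PRDM9, each with under 30 UMIs per library, were also mostly in the UTF1-high cluster: SPO11 had 9 of 11 UMIs there in CST and 16 of 18 in UAT, and PRDM9 had 18 of 19 and 9 of 10. No gene had intervals on opposite sides of 1 in the 2 libraries. PRM1 in CST was at 1230 CPM in the UTF1-high cluster and 805 in the other. In UAT, PRM1 had 1 UMI in all undifferentiated spermatogonia, and DCN, a stroma marker, was at 184 CPM there. The part of free RNA in the ratios between the clusters was not tested in either library.

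**Figure D3:**
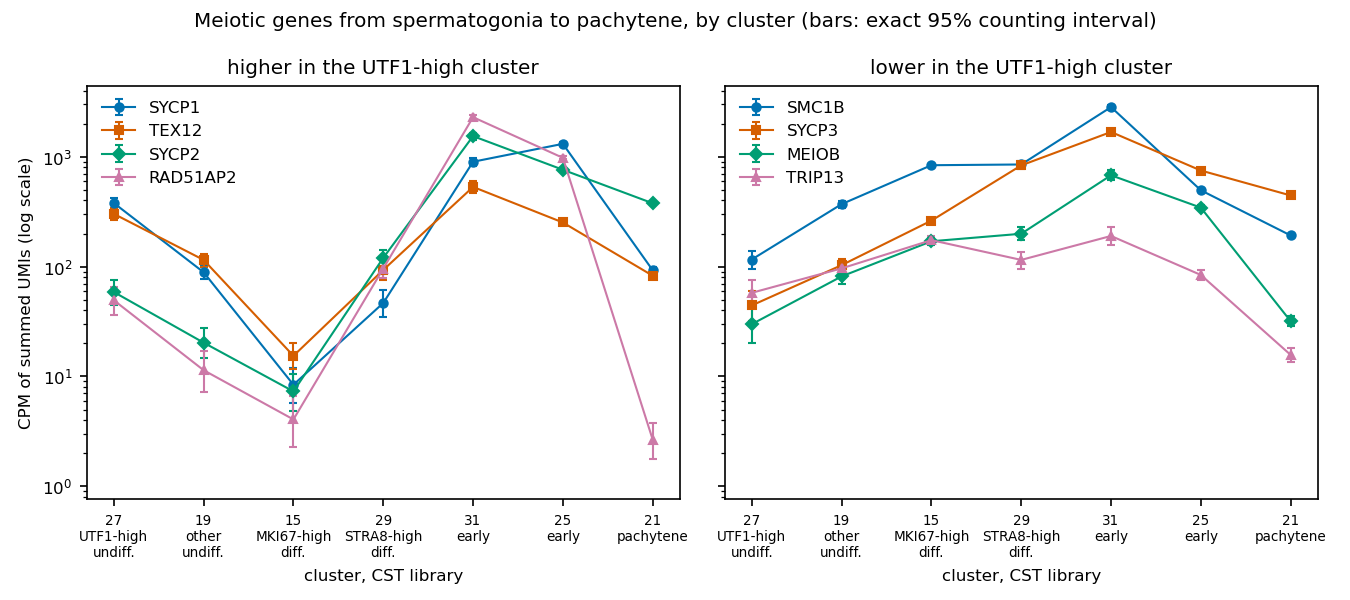
CPM (log axis) in CST of 4 genes higher (left) and 4 genes lower (right) in the UTF1-high cluster, over 7 clusters from undifferentiated spermatogonia to pachytene, with exact 95% counting intervals as bars. On the left all 4 genes have their lowest spermatogonial value in the MKI67-high cluster 15, where SYCP1 is at 8.4 CPM, under the 10.1 CPM of CST somatic cells.

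**Figure D4:**
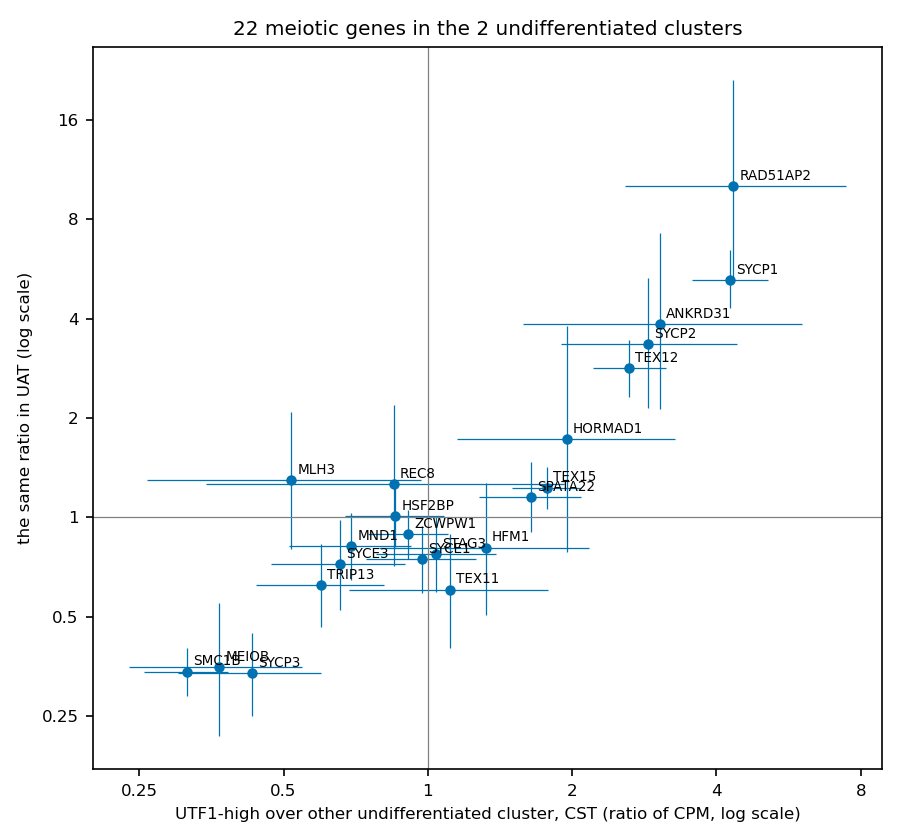
Ratio of CPM between the UTF1-high and the other undifferentiated cluster in CST (x axis) and UAT (y axis), both log axes, for the 22 genes with at least 30 UMIs in each library. Bars are exact 95% counting intervals. SYCP1 lies at 4.27 and 5.25, and SMC1B at 0.314 and 0.341.

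In cells thinned to 2000 UMIs each, SYCP1 had a UMI in 39 of 88 CST cells of the UTF1-high cluster (44.3%, exact Clopper-Pearson 95% interval 33.7 to 55.3) and in 15 of 125 of the other (12%). In UAT it was 23 of 60 (38.3%) and 9 of 104 (8.65%). Somatic cells at the same depth had it in 2.16% of CST and 0.0197% of UAT cells. Without thinning the shares were 95.5% and 64.0% of the cells in CST and 96.7% and 45.2% in UAT. The signal was therefore spread over most cells of the UTF1-high cluster in both libraries.

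Residual levels in the abdominal testis were close to those of the scrotal testis where cells of the same kind could be compared. In undifferentiated spermatogonia (164 UAT cells with 3605881 UMIs, 213 CST cells with 2986234 UMIs) 28 of the 35 genes had at least 30 UMIs. Of these, 2 were called higher in UAT and 2 lower, beside 6.85% of all features higher and 11.7% lower. The median log2 ratio was -0.02, the same as that of all 13095 features tested. These shares lie close to the background. Under the alternative settings 0 to 7 genes were higher and 0 to 17 lower.

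SYCE2 was higher in UAT, with 15.8 CPM (12 to 20.5) against 6.7 (4.09 to 10.3), a ratio of 2.36 (1.4 to 4.15). CNTD1 was at 9.15 (6.3 to 12.9) against 4.02 (2.08 to 7.02), a ratio of 2.28 (1.15 to 4.84). Both rest on few molecules, 57 and 20 UMIs for SYCE2 and 33 and 12 for CNTD1. Somatic cells had 1.77 CPM of CNTD1 in UAT and 12.5 in CST, so its CST value lay under the somatic level and no ratio could be had after subtraction of that level. Without doublet removal the ratio of CNTD1 was 0.978. GCDH, which overlaps SYCE2 in the RefSeq table, gave 1.94 CPM in UAT against 2.34 in CST.

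HORMAD1 was lower in UAT, at 8.32 CPM (5.61 to 11.9) against 21.4 (16.5 to 27.4), a ratio of 0.388 (0.243 to 0.608). Somatic cells of the same libraries had 0.18 and 19 CPM of HORMAD1, so its CST value lay at the somatic level. After subtraction of the somatic level of each library the ratio turned to 3.37. MEIOB was also lower, at 39.4 (33.2 to 46.4) against 64.6 CPM (55.8 to 74.4), a ratio of 0.609 (0.487 to 0.761), and 0.637 after that subtraction.

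The other 24 genes were called neither way. For the axis, SMC1B gave 283 CPM in UAT against 288 in CST (0.983-fold, 0.897 to 1.08). STAG3 was at 76.3 and 74.0, SYCP3 at 100 and 84.1, TRIP13 at 70.2 and 83.7, SYCP2 at 26.1 and 32.8 and REC8 at 15.8 and 10.4. Over the settings run, the ratio ranged from 0.477 to 1.19 for SMC1B, from 0.677 to 1.71 for STAG3 and from 0.413 to 1.49 for SYCP3. For break formation and entry, ZCWPW1 was at 172 and 176 (ratio 0.976, 0.868 to 1.1), ANKRD31 at 15.3 and 14.1 and MEIOC at 7.77 and 9.38. MEIOC and ANKRD31 are too thin for a firm statement, since their intervals run from 0.473 to 1.45 and from 0.713 to 1.66.

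In the central region, SYCE1 gave 98.2 CPM in UAT against 90.4 in CST. SYCE3 was at 56.6 and 74.0, SYCP1 at 144 and 183 and TEX12 at 121 and 175. SYCP1 (ratio 0.789, 0.698 to 0.891), SYCE3 (0.764, 0.629 to 0.929) and TEX12 (0.687, 0.604 to 0.782) had intervals below 1, at less than 1.5-fold. Among strand invasion genes, TEX15 was at 209 and 202 (ratio 1.04, 0.929 to 1.15), HSF2BP at 103 and 118, MND1 at 94.0 and 85.7, SPATA22 at 79.0 and 91.1, RAD51AP2 at 20.8 and 23.8 and MCMDC2 at 5.82 and 7.7. Crossover genes gave 38.5 and 27.8 CPM for TEX11 (ratio 1.39, 1.05 to 1.84), 26.1 and 24.1 for HFM1, 21.4 and 21.8 for MLH3, 11.1 and 9.71 for MSH5 and 10.3 and 5.69 for RNF212. MLH3 in these cells was below its somatic level in both libraries. The 7 genes with under 30 UMIs in the 2 libraries together, SPO11, MEI1, PRDM9, RAD21L1, HORMAD2, DMC1 and MSH4, were between 0.67 and 7.7 CPM in either library.

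**Figure D5:**
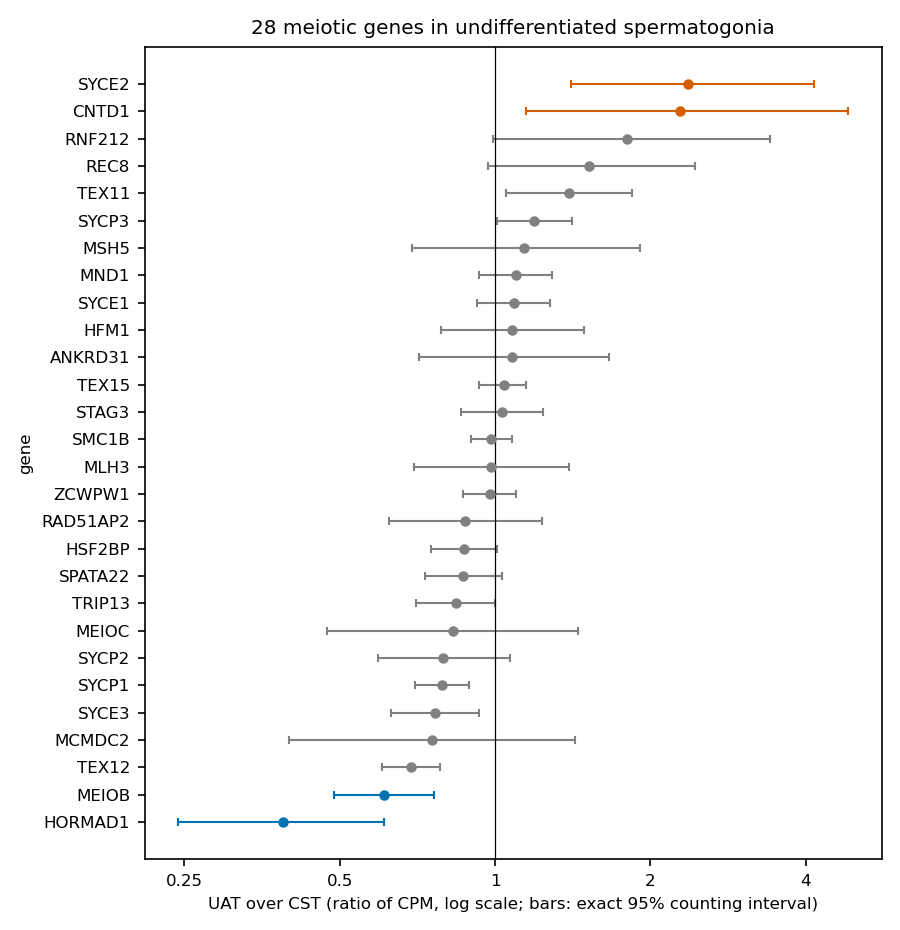
Ratio of CPM in UAT over CST (log axis) in undifferentiated spermatogonia for 28 genes, with exact 95% counting intervals as bars; genes called higher are in orange, lower in blue. Most intervals include or lie close to 1, and the 4 called genes span 0.388 to 2.36.

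Within the UTF1-high cluster, only HORMAD1 was called between the libraries (0.356, 0.178 to 0.679) among 22 testable genes, beside 8.52% of all features higher and 10.9% lower in UAT. In the other undifferentiated cluster 3 of 26 were higher (SYCE2, TEX11 and RNF212) and 5 lower (HORMAD1, SYCP1, TEX12, MEIOB and RAD51AP2), with 7.61% and 10.7% of all features. RNA of other cells differed between the groups. Elongating spermatid markers summed to 15.3 CPM in UAT, with 7 of 12 detected and PRM2, PRM3, TNP1, HMGB4 and SPEM1 at 0, and to 2340 CPM with 12 of 12 in CST. Stroma markers summed to 269 CPM in UAT and 69.7 in CST, with 8 of 8 detected in both. Their part in the ratios was not tested, apart from the subtraction of somatic levels.

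Of the second list, 45 of 47 genes could be compared in undifferentiated spermatogonia, and 3 were higher and 4 lower in UAT. Of all features 6.85% were higher and 11.7% lower, so these counts too lie close to the background. Among the higher ones were H2AX at 41.9 CPM in UAT against 26.1 in CST (ratio 1.6, 1.21 to 2.14) and RAD51C at 125 against 82.0 (1.52, 1.3 to 1.79). H2AX is the histone marked at DNA breaks and RAD51C acts in homologous recombination repair. The lower ones were SPDYA (0.365, 0.185 to 0.689), M1AP (0.404), SYCE1L (0.56) and MEIKIN (0.588), each with under 50 UMIs per library.

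The stages present differed between the libraries when all spermatogonia were summed. Only 10 of the 174 staged UAT cells were differentiating, against 340 of 553 in CST, and the part of this in the ratios was not tested. The 109 UAT and 350 CST cells of cluster 8, which scored nearest to spermatogonia but had no stage, are left out of these counts. Of 34 genes 3 were higher in UAT (SPO11, SYCP1 and HFM1) and 17 lower, beside 18.4% and 21.6% of all features, with a median log2 ratio of -0.52 against -0.03. Over all spermatogonia SMC1B gave 299 CPM in UAT against 627 in CST, beside 283 and 288 within the undifferentiated ones.

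The 10 differentiating UAT cells, with 164866 UMIs in all, were under the planned minimum of 50 cells per library. Their values are only given beside those of the 340 CST cells. Clusters 15 and 29 held 5 UAT cells each, against 240 and 100 CST cells. REC8 was highest in cluster 29 (343 CPM in CST), and the part of this mix in the ratios was not tested. Of 32 genes with at least 30 UMIs, 3 were past the fold and interval on the higher side and 3 on the lower, beside 3.53% and 5.37% of all features. The higher values were those of REC8 at 182 CPM (UAT) and 86.8 (CST), a ratio of 2.1 (1.4 to 3.04), TEX12 at 72.8 and 32.7 (2.23, 1.13 to 4.0) and SYCE1 at 188 and 119 (1.58, 1.06 to 2.26). The lower ones were those of TEX15 at 230 and 498 (0.463, 0.327 to 0.637), MEIOB at 78.9 and 176 (0.448, 0.238 to 0.77) and RAD51AP2, with 0 UMIs in UAT and 24.5 CPM in CST. For RAD51AP2 the 0 UMIs allow up to 18.2 CPM, and the interval of its ratio reached up to 0.93. Values closer to each other were found for MEIOC at 358 and 325, SYCP3 at 364 and 388, HORMAD1 at 176 and 189, STAG3 at 140 and 144 and DMC1 at 36.4 and 27.2. DMC1 rested on 6 UMIs in UAT, with a ratio interval of 0.482 to 2.99. SYCP1 also had 0 UMIs in these cells, which allows up to 18.2 CPM, and was at 16.9 CPM in CST. Thinned to 2000 UMIs, these cells had UMIs of a median of 5 of the 35 genes (3 to 14 per cell), CST differentiating spermatogonia of 6, undifferentiated spermatogonia of 3 in both libraries, CST early spermatocytes of 12 and somatic cells of 0.

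The features carry 3 names, CCDC79, C7H15orf43 and C14H11orf85, that were older names of the telomere genes, but the gene table does not pair them, so they were kept out of all counts. CCDC79 was highest in early spermatocytes at 162 CPM, C14H11orf85 at 177 and C7H15orf43 at 420. In undifferentiated spermatogonia CCDC79 gave 18.9 CPM in UAT against 21.8 in CST, C7H15orf43 at 11.6 and 24.4 and C14H11orf85 at 8.6 and 19.1. CST somatic cells had 20.3 CPM of C7H15orf43 and 4.7 CPM of C14H11orf85.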

How the data were processed

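Testis cells of 2 positions, UAT and CST, were profiled with 1 library each. The deposited values are raw UMI counts, 1 per gene and cell barcode. Per the file headers they come from Cell Ranger 5.0.0, while version 3.0.1 and a mouse build stand in the submitters' processing notes. The build is therefore unclear and no coordinates are given. No file has columns without a sample.

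Of the features with only a gene number, 721 were given a symbol from the RefSeq table, and the others kept their number. Cells with at least 500 detected genes were kept. Doublets were scored among the neighbours of simulated doublets (2 per cell), and 0.8% per 1000 barcodes were removed, 1221 cells in UAT and 1800 in CST. Germ cells of both libraries were clustered together (2000 variable genes without the 35, 30 components, Leiden resolution 1, leidenalg 0.10.2). A cluster received a stage when its highest mean marker z reached 0.6 and its median UMIs were at least 1/3 of its library's, or a marker of that stage was among its 10 leading genes. The z limit was chosen after the marker scores were seen. Intervals of counts (Poisson), ratios (conditional binomial) and shares (Clopper-Pearson) are exact at 95% and were computed with scipy 1.17.1. They cover counting error only, and the interval and call steps were tested on simulated data. With 1 library per position no p-value was computed.

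The genes, lists and stages were chosen with earlier results of these data known. Values in every stage are printed for the genes with the most UMIs in each role (2 per role, 3 in roles of 8 or more), those in undifferentiated spermatogonia for every gene with at least 30 UMIs, and the other genes were named after their values were seen. The comparison of the 2 undifferentiated clusters and the alternatives by cluster or without the 5 richest cells were also chosen after seeing the data. Promoter motifs were not analysed here because no promoter sequences were used. One gene of the second list is not reported here by name.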

Additional observations from a re-analysis of the deposited data

How the results depend on the processing

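The limits are those of 1 library per position, few UMIs for several genes in spermatogonia, and stages drawn from clusters. Counting intervals do not cover differences between animals. The number of genes highest in early spermatocytes, the number declined by late spermatocytes and the calls between neighbouring stages stayed within 1.5 times of their value under every alternative run, except that SYCE1 was lost at 2-fold (0 higher at the step to pachytene). Onset in spermatogonia applied to 24 genes, to 14 at resolution 0.5 and to 13 with the threshold at 50%. In undifferentiated spermatogonia, 2 genes were higher and 2 lower in UAT. The number higher became 4 with at least 1000 genes per cell, 6 at resolution 2, 5 with each library clustered alone, 4 with the mean of each cell's CPM, 7 with the somatic level subtracted, and 1 without the 5 cells richest in the gene. It was 0 in the UTF1-high cluster alone, in cells without a UMI of KIT, STRA8, DMRTB1, MKI67 or TOP2A (19 UAT and 31 CST cells) and in cells thinned to 2000 UMIs, the last 2 with far fewer UMIs. The number lower became 5 without doublet removal, 4 with stages from each cell's marker score, 1 at 2-fold, 4 with at least 10 UMIs, 5 with the mean of each cell's CPM, 1 in the UTF1-high cluster, 5 in the other cluster, 1 in the cells without those UMIs, 0 in thinned cells and 17 over all spermatogonia. The median log2 ratio of -0.02 became -0.34 in the cells without those UMIs and -0.52 over all spermatogonia. The direction of 3 called genes turned: CNTD1 was at 0.978 without doublet removal and 0.997 over all spermatogonia, SYCE2 at 0.698 over all spermatogonia, and HORMAD1 at 3.37 with the somatic level subtracted. MEIOB stayed below 1 under all alternatives run (0.248 to 0.675). Except where the text gives a value that bears on it, the cause was not tested. Diffusion pseudotime did not follow the stage order (median 0.34 in late spermatocytes, 0.49 in differentiating spermatogonia), so it gave no order of onset. No paired analysis was possible because each position had 1 library. The motif search could not be run without promoter sequences.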
